A study of Equus caballus with 8 samples.

Results

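Smooth muscle and pericyte marker genes were followed in the endometrium of mares in early pregnancy and at the matching day of the cycle, Day 12 in both. The list holds 34 genes chosen by name with earlier results of these data known, so counts over it are descriptions. All 34 matched a horse NCBI Gene ID among the 24942 in the count table. CASQ2, which encodes cardiac calsequestrin, had 6 reads over all libraries and fell below the minimum of 10, which left 33 genes, and all 33 passed the filter on low counts that left 15342 genes for testing. Smooth muscle cells lie in artery walls and form the muscle wall of the uterus, and pericytes wrap capillaries and small venules of the endometrium. They contract when calcium, bound to calmodulin, activates myosin light chain kinase, and the thin filament proteins calponin, caldesmon and tropomyosin modulate the sliding of actin over myosin. Most genes of the contractile programme carry binding sites for serum response factor, whose coactivator myocardin is found mainly in smooth and cardiac muscle. Several listed genes, such as FLNA, TPM1, CALD1 and CSRP1, are also active in other cell types.

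The biopsies came from 4 healthy Bavarian Warmblood mares, each sampled once in each state in random order, so that 4 control (cyclic) and 4 pregnant libraries form 4 pairs. All mares received 1500 IU of human chorionic gonadotropin to induce ovulation, semen of 1 stallion was used, pregnancy was seen by ultrasound, and the uterus was flushed before the transcervical biopsy. Ages are not given, no agent was applied to 1 group alone, and RNA integrity numbers ran from 8.3 to 9.2. A biopsy holds all endometrial cell types, so a difference in the number of muscle or pericyte cells and a difference in RNA per cell cannot be told apart.

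Library totals were 9.81 M counts for the pregnant biopsy of mare 1 and 15.5 to 16.7 M for the other 7. Levels are given as CPM, read counts relative to a library size that was scaled by TMM (trimmed mean of M values). They are not corrected for gene length, so they compare libraries and not genes. A gene is said to have risen or fallen where the adjusted p of edgeR's quasi-likelihood test with the mare as a block was below 0.05. By that rule 2565 of 15342 genes changed, 16.7% of those tested, with 1309 higher (8.53%) and 1256 lower (8.19%) in pregnancy. Of the calls 51.0% were higher, against 62.1% with library totals in place of TMM and 68.9% in the fit without the mare block. The median log2 fold change of all genes was 0.00 (0.04 with library totals).

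Of the 33 marker genes, 16 rose and 1 fell, and 16 did not pass. That is 48.5% higher, beside the 8.53% of all genes, for a list chosen with earlier results of these data known. Their median log2 fold change was 0.75, and 29 were above 0. The pregnant libraries lay entirely above the cyclic ones for 13 of the 33, against 6.00% of all genes, and entirely below for 1, against 4.73%. The pregnant biopsy was the higher one in all 4 mares for 23 genes, beside 19.2% of all genes, and the lower one in all 4 for 1 gene, beside 19.6%. The size of the change ranged widely: called rises ran from 1.39-fold for MYLK and NOTCH3 to 4.75-fold for CNN1, and 11 genes had a fitted rise of at least 2-fold, of which 6 passed. Without mare 1 the count was 10 higher and 1 lower, without mare 2 it was 14 and 1, without mare 3 it was 12 and 1, and without mare 4 it was 21 and 1. The share of all genes changed in these fits was 8.23%, 12%, 12.1% and 13.4% in the same order, against 16.7% with all mares. In the fit without the mare block 10 rose and 0 fell, where 2.54% of all genes changed (268 higher and 121 lower of 15342).

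**Figure D1:**
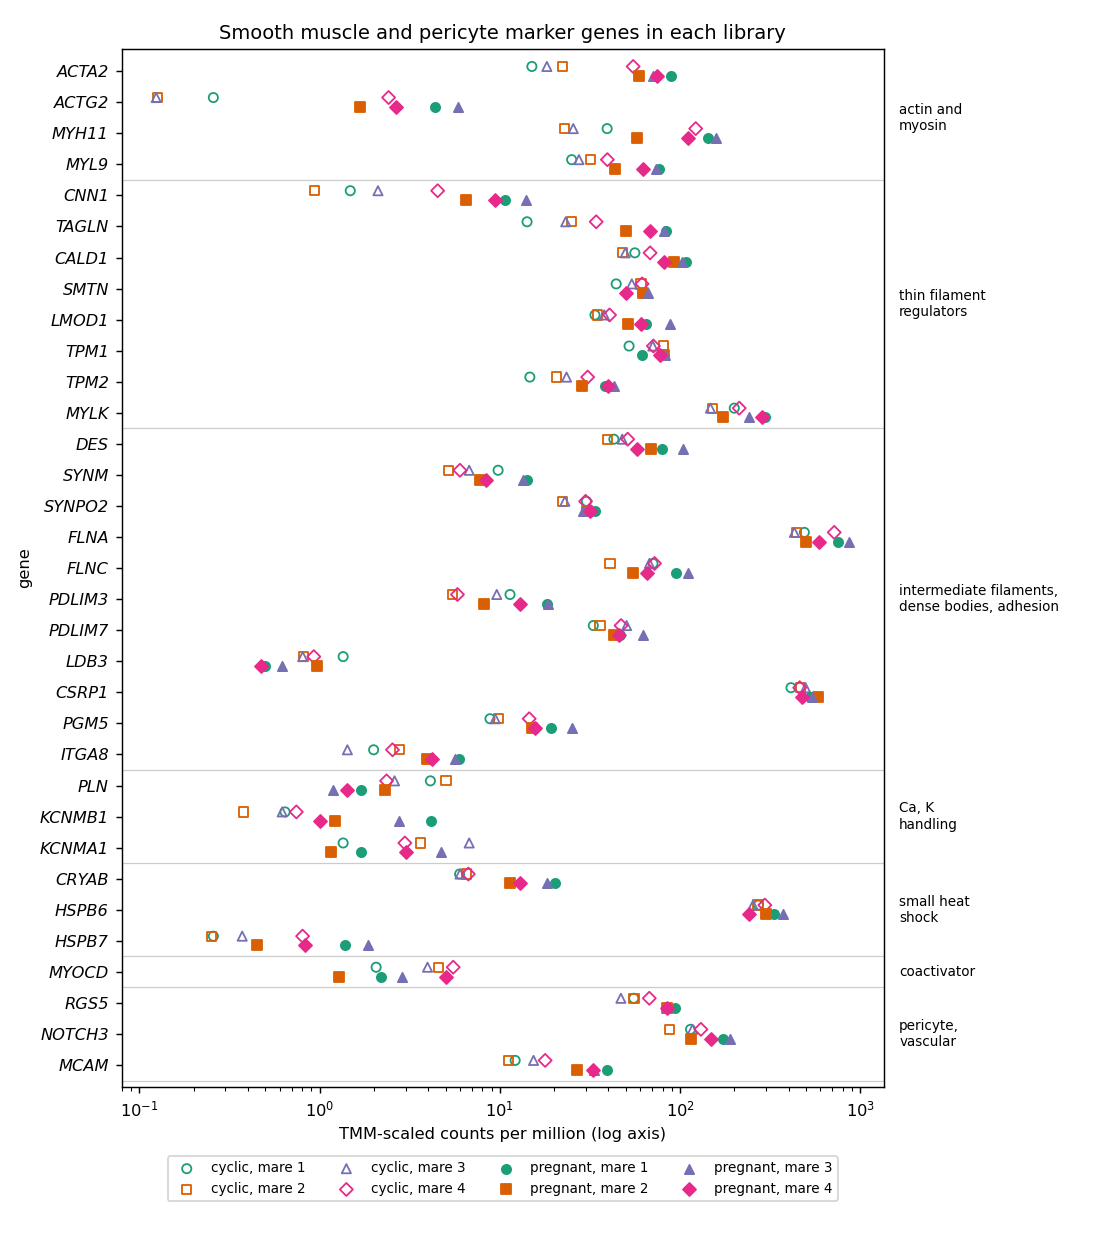
Level of the 33 tested genes in each library, in TMM-scaled CPM on a log axis; open symbols are cyclic and filled symbols pregnant libraries, with 1 colour and shape per mare. For CNN1, LMOD1, CRYAB, RGS5 and MCAM the filled symbols lie to the right of all open ones, and for PLN to the left.

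The filament proteins that generate force are the smooth muscle actins, the smooth muscle myosin heavy chain and its regulatory light chain. ACTA2 (Gene ID 100062175), the alpha actin of vascular smooth muscle, stood at 15.1, 22.2, 18.3 and 55.0 CPM in the cyclic libraries of mares 1 to 4 and at 89.7, 59.2, 70.6 and 74.4 CPM in the pregnant ones. All pregnant libraries were above all cyclic ones, but the cyclic library of mare 4 was far closer to them than the other 3. The fitted fold of ACTA2 was 2.96 (log2 fold change 1.56 ± 0.44 SE; adjusted p = 0.116), which missed the threshold. MYH11 (100050346), the smooth muscle myosin heavy chain, had 39.4, 22.8, 25.6 and 122 CPM in the cycle against 144, 57.8, 159 and 111 CPM in pregnancy. Its groups overlapped, since the cyclic value of mare 4 exceeded the pregnant values of mares 2 and 4 (log2 fold change 1.42 ± 0.60; adjusted p = 0.236).

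ACTG2 (100057561), the gamma actin of visceral smooth muscle, had 0.258, 0.126, 0.124 and 2.42 CPM in the cycle against 4.37, 1.68, 5.85 and 2.66 CPM in pregnancy. The first 3 cyclic values of ACTG2 rest on 4, 2 and 2 reads, so its fitted fold of 5.84 is imprecise (log2 fold change 2.55 ± 0.96; adjusted p = 0.168). The log2 fold change of ACTG2 was 1.83 without mare 3, 4.46 without mare 4 and 3.43 by DESeq2. The coding sequences of the actins are nearly alike, so how reads were divided between ACTA2, ACTG2 and the other actin genes is uncertain. MYL9 (100055199), the regulatory light chain that the kinase phosphorylates, was the member of this class that rose, from 25.1, 31.9, 27.5 and 39.5 CPM to 76.3, 43.6, 73.8 and 62.6 CPM. Its groups did not overlap, with a log2 fold change of 1.03 ± 0.23 (adjusted p = 0.0450). Without mare 4 adjusted p was 0.0132 for ACTA2, 0.0470 for MYH11 and 6.29e-04 for ACTG2, while the call of MYL9 was lost without mare 1 (0.0678), mare 3 (0.103) or mare 4 (0.0813). DESeq2 passed ACTA2 (adjusted p = 0.00301) and ACTG2 (0.00651), and limma-voom passed ACTA2 (0.0132) and MYH11 (0.0418). MYL9 also lost its call with library totals (0.0530), without the filter on low counts (0.0651) and after thinning to equal depth (0.0689).

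Among the thin filament regulators 5 of 8 rose and 0 fell, beside 8.53% of all genes higher and 8.19% lower. CNN1 (100054768), calponin 1, which binds actin and restrains the myosin ATPase, had 1.48, 0.943, 2.11 and 4.52 CPM in the cycle against 10.7, 6.51, 14.0 and 9.35 CPM in pregnancy. The lowest pregnant value of CNN1 was above the highest cyclic one, and its log2 fold change of 2.25 ± 0.33 (adjusted p = 0.00591) was the largest among the called marker genes. LMOD1 (100052019), leiomodin 1, which nucleates actin filaments, rose from 33.7, 34.8, 38.0 and 40.7 CPM to 65.1, 51.6, 87.6 and 61.0 CPM. LMOD1 was tightly grouped in the cycle, with 36.8 ± 3.14 CPM (SD, n = 4), and spread more in pregnancy (66.3 ± 15.3 CPM), and its adjusted p was 0.00213.

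CALD1 (100068106), caldesmon, rose from 55.5 ± 9.18 to 96.0 ± 11.3 CPM without overlap (adjusted p = 0.00742). TPM2 (100055542), beta tropomyosin, rose from 22.4 ± 6.67 to 37.3 ± 6.12 CPM, and in mares 1 to 4 its values went from 14.7, 20.6, 23.5 and 30.7 to 38.2, 28.6, 42.9 and 39.7 CPM. Each mare was higher in pregnancy, but the groups overlapped, because the pregnant biopsy of mare 2 lay below the cyclic biopsy of mare 4. MYLK (100070482), the light chain kinase itself, rose 1.39-fold, from 178 ± 33.3 to 249 ± 55.2 CPM (log2 fold change 0.47 ± 0.09; adjusted p = 0.00868). TPM2 lost its call without mare 3 (adjusted p = 0.0837) and without the mare block (0.101), and MYLK without mare 1 (0.0578) and without the block (0.204).

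The other 3 thin filament genes did not pass. TAGLN (100062690), transgelin, an actin cross-linker of smooth muscle, stood at 14.2, 24.9, 23.2 and 34.3 CPM in the cycle against at 83.6, 50.3, 81.4 and 68.6 CPM in pregnancy. TAGLN was thus higher in each mare with no overlap between the states, and its adjusted p of 0.0566 (log2 fold change 1.57 ± 0.33) was just over the threshold. It passed without the mare block (0.0253), without mare 1 (0.0148), with a minimum count of 50 (0.0479), by DESeq2 (2.17e-04) and by limma-voom (0.00575). SMTN, smoothelin, a marker of contractile smooth muscle, had 55.2 ± 8.03 and 60.0 ± 6.77 CPM (adjusted p = 0.524), and TPM1, alpha tropomyosin, 68.7 ± 12.0 and 75.7 ± 9.78 CPM (adjusted p = 0.175). Both were thus at nearly equal levels in the 2 states, beside fitted folds of 2.98 for TAGLN and 4.75 for CNN1.

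**Figure D2:**
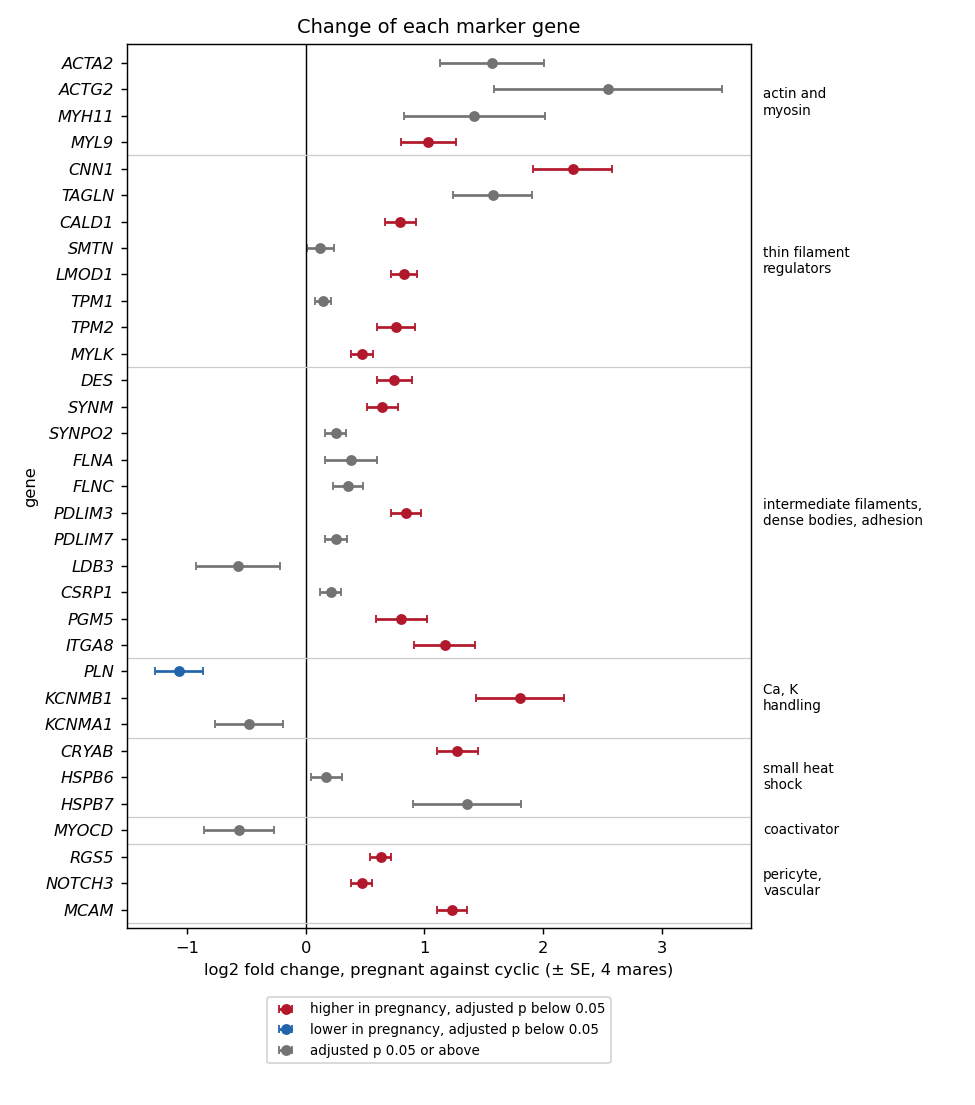
Fitted log2 fold change of each gene, pregnant against cyclic, with its SE over 4 mares, grouped by role; red marks a rise and blue a fall at adjusted p below 0.05. ACTG2 (2.55 ± 0.96), ACTA2 (1.56 ± 0.44) and MYH11 (1.42 ± 0.60) have large estimates with wide errors, and RGS5 (0.63 ± 0.09) a smaller estimate with a narrow one.

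Smooth muscle anchors its thin filaments in dense bodies that are tied together by intermediate filaments and to the membrane by adhesion plaques. Of 11 genes for these structures, 5 rose and 0 fell, beside 8.53% of all genes higher and 8.19% lower. DES (100059397), desmin, the muscle intermediate filament protein, had 43.0, 39.6, 47.8 and 51.2 CPM in the cycle against 79.9, 69.2, 104 and 57.5 CPM in pregnancy. Its groups did not overlap, with mare 3 highest and mare 4 lowest in pregnancy (log2 fold change 0.75 ± 0.15; adjusted p = 0.0196). SYNM (100055953), synemin, which joins desmin filaments, rose 1.56-fold and PDLIM3 (100057090), a PDZ and LIM domain protein that binds alpha-actinin, rose 1.80-fold.

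PDLIM3 had 11.4, 5.47, 9.62 and 5.82 CPM in the cycle against 18.3, 8.19, 18.5 and 13.0 CPM in pregnancy, so mare 2 was lowest in both states. The groups of PDLIM3 overlapped while each mare was higher in pregnancy (adjusted p = 0.00242). PGM5 (100057246), aciculin, a protein of adhesion plaques, rose 1.75-fold. ITGA8 (100056217), the integrin alpha 8 subunit, rose from 2.00, 2.76, 1.43 and 2.54 CPM to 5.97, 3.93, 5.62 and 4.20 CPM, with no overlap (log2 fold change 1.17 ± 0.26; adjusted p = 0.0147). DES lost its call without mare 1 (adjusted p = 0.0940) or mare 2 (0.116), ITGA8 without mare 1 (0.0797) or mare 3 (0.0538), and PGM5, at 0.0466 in all mares, without mare 1 (0.174), mare 2 (0.135) or mare 3 (0.0861). Without the mare block adjusted p was 0.222 for SYNM, 0.194 for PDLIM3 and 0.0739 for PGM5, and PGM5 had 0.0549 without the filter on low counts.

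The 6 other genes of this class did not pass the test. FLNA, filamin A, a widely expressed actin cross-linker, had 520 ± 133 CPM in the cycle against 678 ± 167 CPM in pregnancy (adjusted p = 0.303), with 717 and 590.5 CPM in mare 4 against 431 and 869.7 CPM in mare 3. The muscle filamin FLNC had 62.9 ± 14.8 and 81.6 ± 25.8 CPM (adjusted p = 0.0997). SYNPO2, an actin-bundling protein of dense bodies, had 26.4 ± 4.30 and 31.2 ± 1.96 CPM (adjusted p = 0.0833). PDLIM7 had 41.7 ± 8.46 and 49.5 ± 8.82 CPM (adjusted p = 0.0909), and CSRP1, a LIM domain protein, 459 ± 34.9 and 531 ± 45.5 CPM (adjusted p = 0.128). LDB3, a Z-disc protein best known from striated muscle, was near 1 CPM, at 0.976 ± 0.257 and 0.639 ± 0.228 CPM (adjusted p = 0.312). Without mare 4 adjusted p was 0.0489 for FLNA, 0.00636 for FLNC and 0.0317 for PDLIM7.

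Of the 3 tested genes for calcium and potassium handling, 1 rose and 1 fell, beside 8.53% of all genes higher and 8.19% lower. PLN (100630668), phospholamban, the inhibitor of the calcium pump of the sarcoplasmic reticulum, had 4.12, 5.03, 2.61 and 2.35 CPM in the cycle against 1.69, 2.32, 1.18 and 1.42 CPM in pregnancy. PLN was the marker gene that fell, it was lower in each mare, and the highest pregnant value was just under the lowest cyclic one (log2 fold change -1.07 ± 0.20; adjusted p = 0.00738). KCNMB1 (100059234), the smooth muscle beta subunit of the large-conductance calcium-activated potassium channel, rose from 0.644, 0.377, 0.621 and 0.744 CPM to 4.18, 1.22, 2.76 and 1.01 CPM. That rise was 3.49-fold (adjusted p = 0.0103) and was steep in mares 1 and 3 and shallow in mare 4. It rests on few reads, 10, 6, 10 and 12 in the cycle against 42, 19, 49 and 17 in pregnancy. The pore subunit of the same channel, KCNMA1, had 1.35, 3.64, 6.77 and 2.97 CPM in the cycle against 1.69, 1.16, 4.72 and 3.02 CPM in pregnancy. KCNMA1 was lower in 2 mares and slightly higher in the other 2 (adjusted p = 0.303), and its mare-to-mare differences passed the test (adjusted p = 0.0436). Without the mare block adjusted p was 0.106 for PLN and 0.0729 for KCNMB1, and KCNMB1 had 0.0748 without mare 1.

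Of the 3 small heat shock proteins, CRYAB (100061921), alpha-B crystallin, a chaperone of desmin filaments, rose from 5.99, 6.53, 6.02 and 6.69 CPM to 20.3, 11.3, 18.3 and 12.9 CPM. The cyclic values of CRYAB were nearly constant (6.31 ± 0.357 CPM), and the lowest pregnant library was well above them (log2 fold change 1.28 ± 0.17; adjusted p = 0.00202). HSPB6, which binds actin-regulating proteins and is linked to relaxation, had 273 ± 17.0 and 312 ± 56.4 CPM (adjusted p = 0.402). HSPB7, the cardiovascular small heat shock protein, had 0.422 ± 0.262 and 1.13 ± 0.618 CPM on 4 to 33 reads per library (adjusted p = 0.0733).

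MYOCD (100073100), the coactivator myocardin, was not among the genes that rose. It stood at 2.06, 4.59, 3.97 and 5.52 CPM in the cycle against at 2.19, 1.29, 2.87 and 5.03 CPM in pregnancy, lower in 3 of 4 mares, with a log2 fold change of -0.56 ± 0.29 that did not pass (adjusted p = 0.230). With 0.5 CPM added to each level, the log2 ratio of MYOCD in mares 1 to 4 was 0.07, -1.51, -0.41 and -0.12. That of CNN1 was 2.50, 2.28, 2.47 and 0.97. A link between MYOCD and CNN1 was not tested.

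All 3 genes listed for pericytes and vascular mural cells rose, beside 8.53% of all genes. RGS5 (100059437), a regulator of G protein signalling that is a pericyte marker, went from 55.4, 55.6, 47.0 and 67.5 CPM to 93.9, 84.3, 84.2 and 84.7 CPM. Pregnant RGS5 levels were nearly identical in mares 2 to 4, and none overlapped the cycle (log2 fold change 0.63 ± 0.09; adjusted p = 0.00208). MCAM (100071414), the adhesion molecule CD146 of mural and endothelial cells, had 12.2, 11.2, 15.4 and 17.8 CPM in the cycle against 39.4, 26.8, 33.3 and 33.0 CPM in pregnancy. With a log2 fold change of 1.23 ± 0.13 it had the smallest adjusted p of the marker genes (5.94e-04). NOTCH3 (100146771), the Notch receptor of mural cells, rose 1.39-fold, from 112 ± 18.3 to 157 ± 32.5 CPM (adjusted p = 0.00742), and its call was lost without mare 1 (0.0529) and without the mare block (0.170).

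The 4 pairs of biopsies differed in how far the genes moved. With 1 biopsy per mare and state, a difference between mares in the change cannot be told apart from a difference between biopsies. The median log2 ratio of pregnant to cyclic over the 33 genes, with 0.5 CPM added to each level, was 0.76, 0.45, 0.93 and 0.16 in mares 1 to 4, against medians of all genes between -0.01 and 0.01. The number of genes higher in pregnancy was 31, 30, 29 and 24 of 33 in the same order. Mare 4 had the smallest ratio for 22 of the 33 genes, and the largest was in mare 3 for 15 and in mare 1 for 14. Shares over all genes are not given for these ratios. In mare 4 the cyclic library was high: it had the highest cyclic value for 23 of 33 genes (69.7%), where it had the highest for 23.8% of all genes. The ratio contains the cyclic value, so a high cyclic value lowers it by construction. In pregnancy mare 2 had the lowest value for 22 of 33 (66.7%, against 25.3% of all genes) and mare 3 the highest for 17 (51.5%, against 23.5%). The mare terms passed for 8 of 33 genes (24.2%), beside 15.9% of all genes, namely PDLIM3, TPM1, SYNM, MYLK, NOTCH3, KCNMA1, FLNC and PDLIM7. The count was 1 without mare 1 and 4 without mare 2. Matching counts over all genes are not given here, so this drop is not a result about the marker genes.

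**Figure D3:**
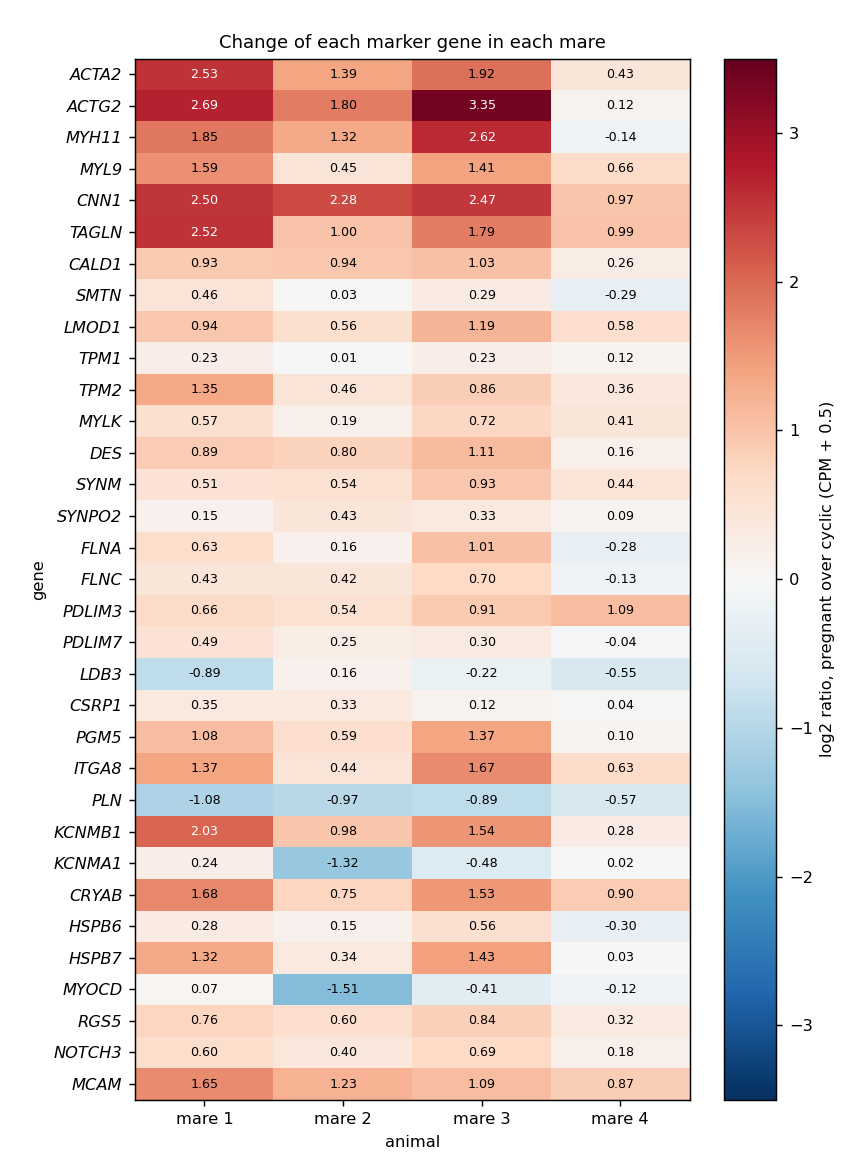
Log2 ratio of pregnant to cyclic level in each mare, with 0.5 CPM added to both, for the 33 genes; red is higher and blue lower in pregnancy. The actin and myosin rows fade from mares 1 and 3 to mare 4, where MYH11 is at -0.14, while PLN is blue in each mare.

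The summed level of the 4 actin and myosin genes shows the same split. It was 79.8, 77.0, 71.4 and 219 CPM in the cycle against 314, 162, 309.6 and 251 CPM in pregnancy, a ratio of 3.93, 2.11, 4.33 and 1.14 in mares 1 to 4. The 3 pericyte genes together had ratios of 1.69, 1.47, 1.71 and 1.23, a narrower range.

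Genes that act around the contraction machinery were taken from lists drawn up by name, also with earlier results of these data known. Of 20 genes for the control of contraction 0 rose and 1 fell, and their median log2 fold change was -0.05. That is 5% changed, beside 16.7% of all genes (8.53% higher and 8.19% lower), and the difference was not tested. Of 19 calcium and receptor genes 6 rose and 5 fell (57.9% changed). ITPR1, a calcium release channel of the endoplasmic reticulum, rose 2.34-fold, and CACNB2, a subunit of voltage-gated calcium channels, fell from 13.9 ± 3.33 to 7.29 ± 1.92 CPM. PTGFR, through which prostaglandin F2 alpha contracts the uterus, went down to 7.01 ± 2.27 CPM from 19.2 ± 5.87 CPM, and EDNRB, an endothelin receptor, from 206 ± 41.2 to 113 ± 35.0 CPM. Related genes went the other way, named here outside the rule after their values were seen. EDNRA, another endothelin receptor, rose 1.76-fold (adjusted p = 0.0131), and CACNA1C, another calcium channel subunit, rose 1.49-fold (adjusted p = 0.0235). Without the mare block adjusted p was 0.0547 for ITPR1, 0.0691 for CACNB2 and 0.0840 for EDNRB.

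Of 22 genes around serum response factor and the contractile phenotype, 6 rose and 2 fell (36.4% changed, beside 16.7% of all genes). FHL1, a LIM protein of muscle, rose from 14.3 ± 2.93 to 25.6 ± 2.08 CPM, and KLF5, a factor also abundant in epithelium, rose 1.65-fold. JAG1, a Notch ligand, rose 1.53-fold (adjusted p = 0.00227; 0.0581 without the mare block). The 2 that fell, named here outside the rule, were TEAD1 (log2 fold change -0.66, adjusted p = 0.00886) and FHL2 (-0.66, adjusted p = 0.0166). Serum response factor itself and the myocardin-related factors, named here outside the rule after their values were seen, had adjusted p of 0.424 for SRF (log2 fold change -0.12), 0.925 for MRTFA and 0.471 for MRTFB.

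Markers of neighbouring cell types moved too, and their counts stand beside 8.53% of all genes higher and 8.19% lower. Of 12 other pericyte genes tested, 6 rose and 0 fell, among them PDGFRB, the receptor that recruits pericytes, at 191 ± 41.1 and 315 ± 91.8 CPM (adjusted p = 0.00152; 0.132 without the mare block). Of 21 endothelial markers 15 rose and 0 fell, with CLDN5, the endothelial tight junction gene, 3.00-fold and ECSCR 2.24-fold higher. Their summed level was 1415 to 2098 CPM in the cycle and, overlapping it, 1949 to 2562 CPM in pregnancy. The ratios of that sum in mares 1 to 4 were 1.61, 1.38, 1.42 and 1.12, with mare 4 again the highest cyclic library. Of 20 stromal markers 10 rose and 1 fell. DPT, a matrix protein, rose 2.09-fold, while the stromal sum, at 5109 to 6739 CPM in the cycle against 5900.5 to 6887 CPM in pregnancy, overlapped too. Of 19 epithelial markers 1 rose and 4 fell, and their sum was 2668 to 3153 CPM in the cycle and, overlapping it, 2534.5 to 2940 CPM in pregnancy. Of 8 blood cell markers 3 rose and 0 fell, among them CD14 of monocytes, 1.47-fold. The part of endothelial and stromal markers in the rise of the muscle genes was not tested.

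Striated muscle was checked as another source of shared genes. Of 20 such markers 18 matched, 5 were tested and 0 changed by edgeR (2 of the 5 at an unadjusted p under 0.05), and 0 by DESeq2 or limma-voom. With 16.7% of all genes changed, 5 tested genes are too few to read the 0 as a result. There was 1 call without mare 2, 1 after thinning to equal depth, and 1 of 11 without the filter on low counts. The most abundant, ACTA1 and MYH7, had adjusted p of 0.873 and 0.715. MYL1, MYL2 and MYOD1 had 0 reads in all libraries. That allows up to 0.306 CPM in the shallowest library and up to 0.194 CPM in the others, for counting error only. On the same list 11 genes had at least 10 reads over all libraries, so these 3 genes do not stand for the list. The summed level of the list was 11.2 to 13.1 CPM in the cycle against 10.0 to 31.9 CPM in pregnancy, and the high value, in mare 3, came from ACTC1. This cardiac alpha actin, singled out after its values were seen, had 0 to 2 reads in 7 libraries and 357 reads (20.1 CPM) in the eighth, that of mare 3 in pregnancy. Mare 3 had the highest pregnant value for 17 of the 33 marker genes, and without it the counts were 12 higher and 1 lower.

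**Figure D4:**
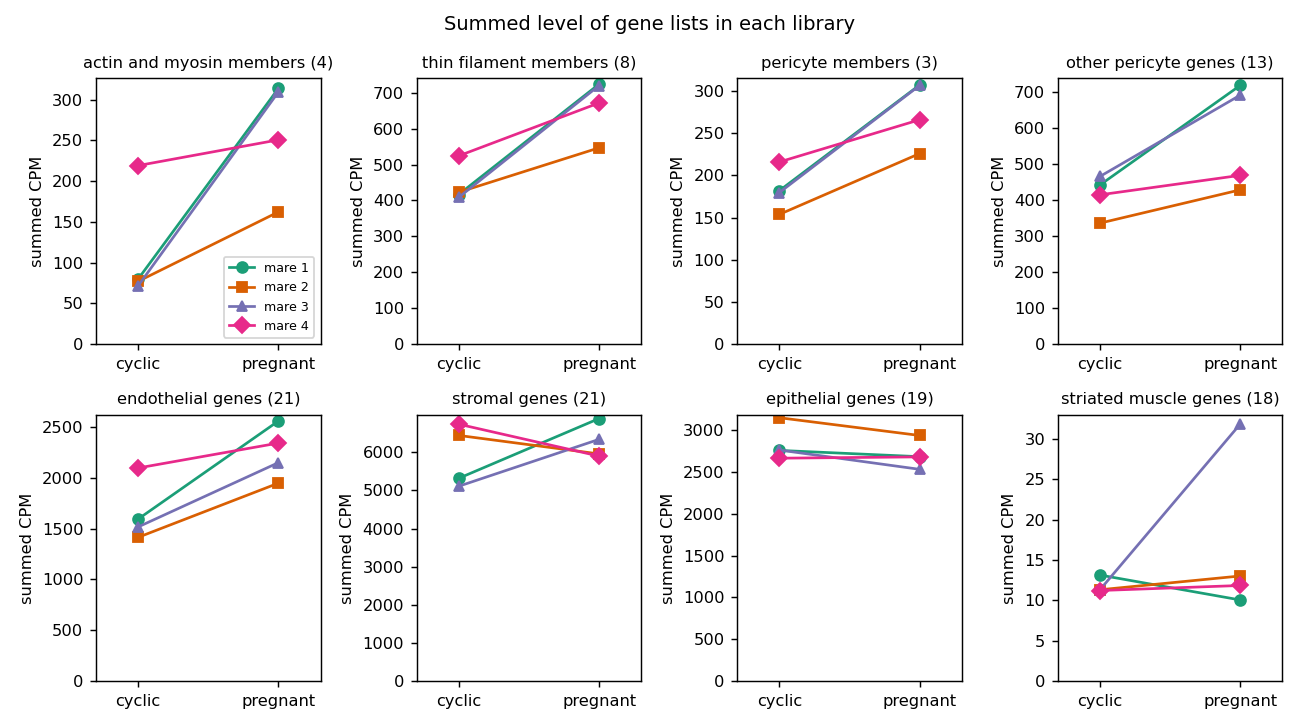
Summed CPM of gene lists in each library, with the number of matched genes in parentheses; lines join the 2 biopsies of a mare and each axis starts at 0. Mare 4 is high in the cycle for the actin and myosin, thin filament and endothelial genes, and the striated muscle list is high in the pregnant biopsy of mare 3 alone.

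Strand is not kept by the library kit as described, and overlapping genes on opposite strands can therefore share reads. In the RefSeq gene table, 17 of the 34 genes overlap the span of another gene, and 6 overlap one that the count table also holds. PLN lies within the span of CEP85L, which had 6.07 ± 0.710 and 6.75 ± 1.38 CPM (adjusted p = 0.583), and MCAM overlaps RNF26, which had 39.1 ± 3.37 and 44.1 ± 3.25 CPM (adjusted p = 0.169). ACTA2 overlaps STAMBPL1, at 5.86 ± 0.708 and 7.20 ± 1.18 CPM (adjusted p = 0.249). The partners of KCNMB1, CRYAB and HSPB7 had means below 1 CPM in both states.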

How the data were processed

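The 34 genes and all lists were chosen with earlier results of these data known, so their counts are descriptions. The authors deposited raw counts, 1 column for each of 8 libraries and 1 row for each gene. The submitters' processing notes name Trimmomatic 0.32.2 and HISAT2 2.0.3; genome build, annotation and counter remain not given in the sources used here. A second deposited table was not used. Symbols came from the RefSeq table of assembly TB-T2T by Gene ID (21420 of 24942 IDs matched, 85.9%), and no coordinates or sequences are given. With edgeR 4.0.16 in R 4.3.3, the counts were filtered by filterByExpr (minimum count 10; the kept genes hold 99.9% of the counts in the library with the lowest share), scaled by TMM and tested by the robust quasi-likelihood F-test for state with the mare as a block, and for the 3 mare terms together, with Benjamini-Hochberg adjustment over 15342 genes. The SE is the log2 fold change divided by the square root of F. The mare block follows the design text, which says that each mare gave both biopsies. Deviations from the group mean correlated across genes at 0.37 to 0.55 for the same mare and at most at -0.01 for different mares. Since deviations from a group mean add up to 0, positive same-mare values bring negative ones between different mares. Nothing in the labels speaks of technical repeats, and no pair within a group agreed within sampling noise (chi-square per degree of freedom at least 24.6). The fit was tested on simulated data. Alternatives were no mare block, other scaling, 2 other filters, DESeq2 1.42.0, limma-voom (limma 3.58.1), thinning to 9812053 counts per library and leaving out each mare. The text names all 34 genes, and from each other list up to 4 called genes with the smallest p, or the 2 most abundant where none was called; of these a selection is printed. The called gene of the list for the control of contraction is not reported here by name.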

Additional observations from a re-analysis of the deposited data

Results flagged for a closer look

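In 66 groups of 4 libraries (33 genes in 2 states), 4 had 1 library far from the other 3, where about 1 in 20 groups would be marked by chance. In the cycle, mare 4 stood at 2.42 CPM for ACTG2 against 0.124 to 0.258 CPM in the others, and at 122 CPM for MYH11 against 22.8 to 39.4 CPM. Also in the cycle, mare 2 stood low for FLNC, at 40.8 CPM against 67.7 to 72.2 CPM. In pregnancy, mare 1 stood at 93.9 CPM for RGS5 against 84.2 to 84.7 CPM.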

How the results depend on the processing

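Of the 17 calls among the marker genes, 6 (CALD1, CNN1, CRYAB, LMOD1, MCAM and RGS5) passed in all 12 alternatives, 3 (PDLIM3, PLN and SYNM) were lost only without the mare block, and of the 16 genes not called 7 passed in at least 1 alternative. No marker gene changed sign in any alternative that tested it. Without the mare as replicate block, 10 marker genes, 389 of all genes and 18 of the genes in the other lists changed, against 17, 2565 and 60 with it. Leaving out 1 mare gave 11 to 22 marker genes, 1266 to 2057 of all genes and 39 to 53 of the other lists. Marker genes that differ between mares numbered 8 with all mares, 5 with limma-voom, and 1 to 8 with 1 mare left out. The counts over all genes in those fits are not given here. ACTA1 turned from -0.16 to 0.41 (log2) without mare 1 (range -0.61 to 0.41 with 1 mare left out) and did not pass in any. The fits with 1 mare left out rest on 6 libraries; the causes of these shifts were not tested. A minimum count of 50 left 28 and thinning left 30 of the 33 genes to test, so depth limits ACTG2, HSPB7, KCNMB1, LDB3 and PLN most (each untested at that minimum).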
